A study of Drosophila melanogaster with 12 samples.

Results

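H3K23ac, the acetylated form of lysine 23 on histone H3, was compared between enok_KD ovaries and GFP_KD ovaries of Drosophila melanogaster by ChIP-seq, with the H3K23ac reads taken alone and not divided by H3. The comparison used the 4 libraries made with the antibody against H3 acetylated at lysine 23, of the 12 libraries in the series, and these were 2 enok_KD libraries and 2 GFP_KD libraries. The other libraries were 4 of total H3 and 4 of input. The H3 libraries are quoted only beside a result, and the input libraries were not used here. Reads were counted over 142 piRNA clusters and 215 transposon elements. A cluster or element was tested when its mean over the 4 H3K23ac libraries was at least 10 reads, which kept 85 clusters and 202 elements.

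Both groups were females 2 to 3 days old whose RNAi had run at 29 °C for 2 to 3 days. Both carried 1 copy of tj-GAL4, which drives expression in the somatic cells of the ovary, together with the germline driver GAL4::VP16-nos.UTR, a P{w[+mC]} insertion in CG6325 called MVD1. Opposite the germline driver, enok_KD females had the hairpin insertion P{TRiP.HMS02634}attP2 against enok, and GFP_KD females had P{VALIUM20-EGFP.shRNA.1}attP2 against EGFP as the control. Each knockdown is therefore 1 hairpin line, and the whole ovary, with its somatic and germline cells mixed, was used for chromatin. The tables hold no genes, so neither the depletion of enok nor the markers of the ovary could be checked in these libraries. The study describes its ChIP-seq replicates as independent and pooled many ovaries in each, so a library stands for a pool of animals.

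Enok is the KAT6 acetyltransferase of the fly and places most of its H3K23ac, and acetylation of histone tails is generally found where chromatin is transcribed. piRNA clusters are loci rich in transposon remnants that are transcribed into the precursors of piRNAs, the small RNAs that guide the silencing of transposons in the gonad. Clusters such as 42AB are transcribed from both strands in the germline under the heterochromatin protein Rhino, whereas flamenco is transcribed from 1 strand in somatic follicle cells. The question of the comparison was whether the mark at these loci depends on Enok.

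The H3K23ac libraries held 22774 and 32901 cluster reads in enok_KD and 34324 and 27084 in GFP_KD, and 199303 and 292071 transposon reads in enok_KD and 370429 and 296722 in GFP_KD. Of the 142 clusters, 96 had reads. The other 46 are all the clusters labelled chromosome U, and each was listed at 0 in every H3K23ac and H3 library. Whether reads could be assigned to them is not given in the sources used here, so these zeros set no limit on their H3K23ac. The 11 clusters with reads that were not tested averaged under 10 reads, as did 8 of the 210 elements with reads. Each table was scaled on its own by TMM, a method that sets the typical feature to no difference. A normalised read count below is a count divided by its scaled library size and multiplied by the mean of those sizes. A loss of H3K23ac shared by all clusters or all elements would not be seen on this scale.

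Replicates of GFP_KD were closer to each other than those of enok_KD. Over transposon elements the median absolute log2 ratio of replicate 1 to replicate 2 was 0.32 in enok_KD, as compared with 0.08 in GFP_KD. Over clusters these medians were 0.25 in enok_KD and 0.12 in GFP_KD. In chi-square units per degree of freedom, the replicates differed by 38.9 in enok_KD and 2.73 in GFP_KD over elements, and by 4.90 in enok_KD and 1.24 in GFP_KD over clusters. Against counting noise alone, the chi-square p of the GFP_KD pair was 0.0679 over clusters and 4.68e-34 over elements, and the GFP_KD libraries were counted as separate samples. For 1 feature alone, an exact two-sided test of 2 libraries against 2 gives 0.333 at best. The tests therefore borrowed their spread from all features of the table. Over clusters the borrowing was complete, at 170 degrees of freedom. A cluster's own replicate spread thus had no separate weight in its standard error or p. Over elements it was partial, at a median of 6.23 degrees of freedom. The numbers of calls below can therefore not be compared between clusters and elements.

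At piRNA clusters, H3K23ac differed between enok_KD and GFP_KD in both directions, relative to the typical cluster. More clusters were called higher than lower, but over all tested clusters slightly more lay below 0 than above. Of the 85 clusters, 9 (10.6%) were called at an adjusted p under 0.05 (edgeR, quasi-likelihood test, Benjamini-Hochberg over all tested clusters). Clusters 92, 79, 19, 141, 26, 128 and 107 rose in enok_KD (8.24% of those tested), and clusters 27 and 5 fell (2.35%). At an unadjusted p under 0.05 there were 24 clusters (28.2%), 13 higher (15.3%) and 11 lower (12.9%). Over all tested clusters the log2 fold change of enok_KD over GFP_KD had a median of −0.02 and ran from −1.14 to 1.09, with 40 clusters above 0 and 45 below. No cluster had both a log2 fold change below −1 and an adjusted p under 0.05, thresholds that the study applied to H3K23ac normalised to H3 and that are applied here to H3K23ac alone. The 95% interval stayed above −1 in 76 of the 85.

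These counts depended on the scaling and on single libraries. Scaling by total counts in place of TMM shifted the median log2 fold change by −0.41 and gave 28 calls, 1 higher and 27 lower, 4 of them below −1. With cluster 92 left out of those totals the shift was −0.08 and 4 clusters were called, 3 higher and 1 lower. Without enok_KD replicate 1 there were 21 calls, and without enok_KD replicate 2 there were 16. Without GFP_KD replicate 1 or without GFP_KD replicate 2 there were 0 calls by edgeR, with 5 and 7 clusters at an unadjusted p under 0.05. In the first pair of fits the spread came from the GFP_KD pair alone, and in the other from the enok_KD pair alone.

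In 44 of the 85 clusters (51.8%) the enok_KD libraries did not overlap the GFP_KD libraries. Both enok_KD libraries lay above both GFP_KD libraries in 20 (23.5%) and below them in 24 (28.2%). The direction went with depth. Of the 39 clusters with a mean of at least 100 reads, 24 were above 0 and 15 below, with a median log2 fold change of 0.15. Of the 46 with 10 to under 100 reads, 16 were above 0 and 30 below, with a median of −0.11. All 9 calls were among the deeper clusters, and the median standard error was 0.15 there and 0.27 in the shallower ones.

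Cluster 92 (XHet, 170080 to 204036, all positions in dm3) had 12915 and 14935 normalised H3K23ac reads in enok_KD, against 6693 and 6355 in GFP_KD. Both enok_KD libraries stood far above both GFP_KD libraries. The log2 fold change was 1.09 ± 0.19 (SE; 2.13-fold; edgeR adjusted p = 2.84e-06). Per kilobase the cluster averaged 410 normalised reads in enok_KD and 192 in GFP_KD, as compared with medians over the tested clusters of 1.87 in enok_KD and 2.16 in GFP_KD. Cluster 4 was also far above these medians, at 252 in enok_KD and 195 in GFP_KD. In the H3 libraries the same cluster had 11953 and 12040 normalised reads in enok_KD and 12447 and 11952 in GFP_KD, with a log2 fold change of −0.02 ± 0.08, so the groups overlapped there. The cluster was thus deep in H3 as well, with 19.2% and 18.8% of the H3 cluster reads in enok_KD and 21.6% and 21.2% in GFP_KD.

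Cluster 92 held 38.1% and 43.1% of all H3K23ac cluster reads in enok_KD and 25.5% and 25.1% in GFP_KD. It also set the total over clusters. For every 1000 transposon reads there were 114 and 113 cluster reads in enok_KD and 92.7 and 91.3 in GFP_KD. Without cluster 92 these were 70.7 and 64.1 in enok_KD and 69.0 and 68.3 in GFP_KD, and the groups overlapped. The stacked plot of cluster reads per 1000 transposon reads shows both parts.

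**Figure D1:**
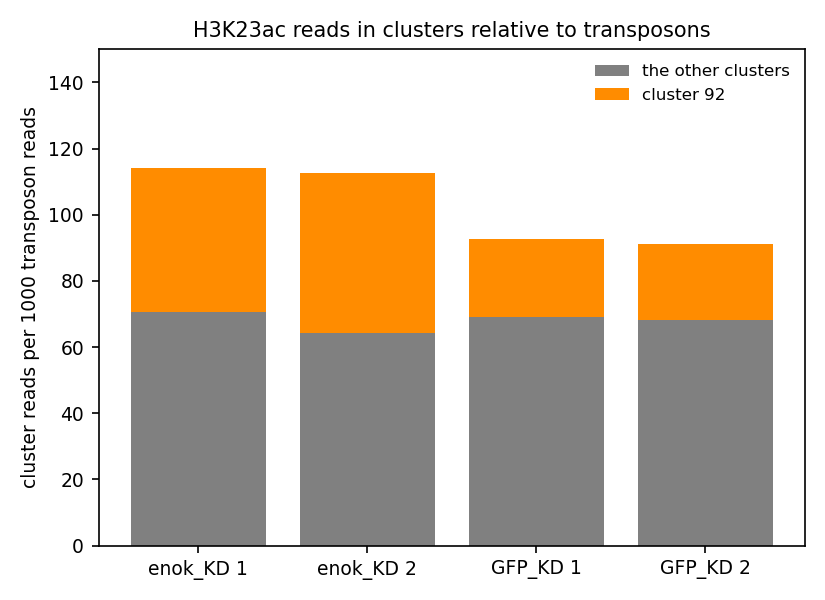
H3K23ac reads in piRNA clusters per 1000 reads in transposon elements, 1 bar for each library, split into cluster 92 and all other clusters. Cluster 92 gives 43.5 and 48.5 in enok_KD and 23.6 and 22.95 in GFP_KD, while the other clusters together overlap between the groups.

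The largest group of calls lay on chromosome 2L, where 3 clusters rose and 2 fell among 10 tested, as compared with 8.24% higher and 2.35% lower of all 85. Cluster 79 (22420341 to 22452436) had 915 and 985 normalised reads in enok_KD, against 616 and 625 in GFP_KD (log2 fold change 0.62 ± 0.14, SE; edgeR adjusted p = 0.000272). Cluster 141 (21544534 to 21575520) had 268 and 277 in enok_KD, against 185 and 178 in GFP_KD (0.59 ± 0.15; edgeR adjusted p = 0.00293). At both clusters the replicates lay close together and the groups were well apart. Cluster 107 (21894816 to 21900308), a short cluster of 5.49 kb, had 512 and 427 in enok_KD, against 393 and 287 in GFP_KD (0.45 ± 0.14; edgeR adjusted p = 0.0148), and there the lower enok_KD library was only slightly above the higher GFP_KD library. The fold change of cluster 107 was 0.25 without GFP_KD replicate 2, 0.30 without enok_KD replicate 1 and 0.70 without GFP_KD replicate 1.

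Clusters 27 and 5, which fell, are neighbours on 2L. Cluster 27 (20104660 to 20118503) had 116 and 113 normalised reads in enok_KD, against 203 and 198 in GFP_KD (log2 fold change −0.81 ± 0.17, SE; 0.571-fold; edgeR adjusted p = 0.000258). Cluster 5 (20148259 to 20227581) had 213 and 241 in enok_KD, against 326 and 290 in GFP_KD (−0.43 ± 0.15; edgeR adjusted p = 0.035). In both, the enok_KD libraries lay below the GFP_KD libraries without overlap, as in 28.2% of all 85 clusters. Their H3 log2 fold changes were −0.18 ± 0.11 and −0.05 ± 0.10. Clusters further along this arm did not share a direction. Cluster 62 was at 0.39 ± 0.18 and cluster 79 at 0.62, while cluster 23, which ends just before cluster 79 begins and was picked out after its value was seen, was at −0.22 ± 0.25.

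The remaining clusters that rose lay on other chromosomes. Cluster 26 (3LHet, 495578 to 629871) had 534 and 645 normalised reads in enok_KD, against 411 and 421 in GFP_KD (log2 fold change 0.51 ± 0.14, SE; edgeR adjusted p = 0.0031), with H3 at −0.00 ± 0.08. Cluster 128 (2R, 3321225 to 3327008) had 314 and 237 in enok_KD, against 192 and 197 in GFP_KD (0.49 ± 0.15; edgeR adjusted p = 0.0158). Cluster 19 (X, 11089529 to 11095706) had 110 and 205 in enok_KD, against 102 and 97.0 in GFP_KD (0.69 ± 0.18; edgeR adjusted p = 0.00293). The rise at cluster 19 came mainly from enok_KD replicate 2, and its log2 fold change was 0.13 without that library. Cluster 128 was at 0.27 without enok_KD replicate 1. H3 was also higher in enok_KD at cluster 19 (0.69 ± 0.22) and at cluster 128 (0.48 ± 0.13), by about as much as H3K23ac. Its part in those results was not tested.

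**Figure D2:**
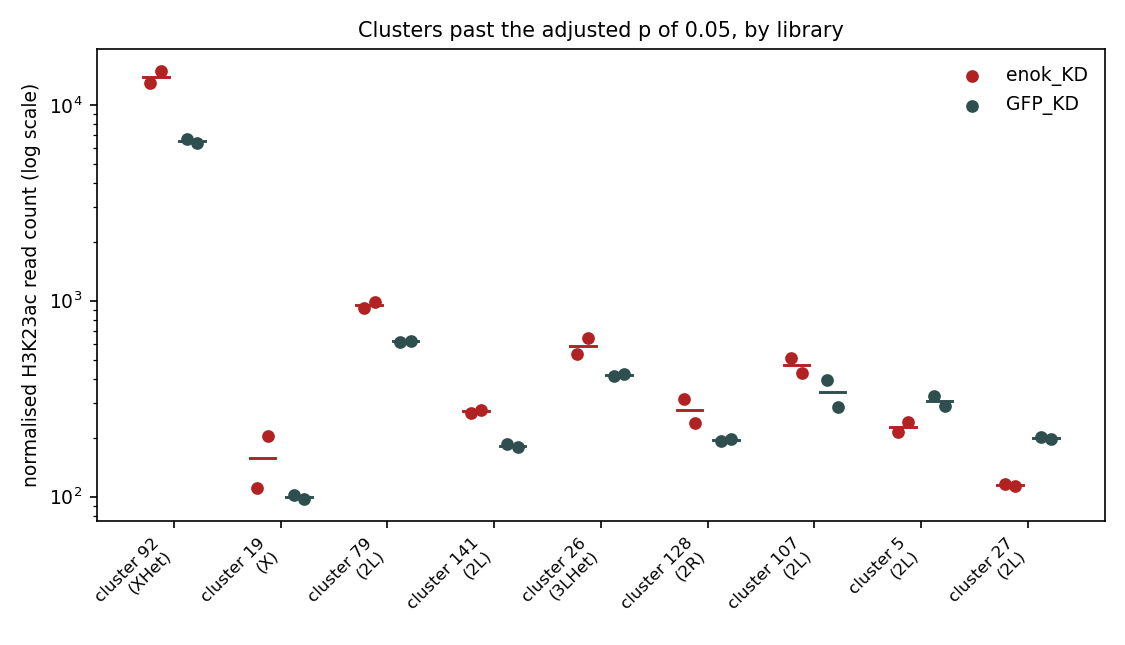
Normalised H3K23ac read count on a log axis for the 9 clusters past the adjusted p of 0.05, with a point for each library and a bar at the mean of each group, enok_KD left of GFP_KD. The libraries of the groups do not overlap in any of them, as in 51.8% of all 85 clusters. Cluster 19 shows the widest gap between its enok_KD libraries, 110 and 205.

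Of the 9 calls, clusters 92 and 27 passed under all 11 alternative settings that left no library out, and cluster 79 under 10 of them. Cluster 141 passed under 9, cluster 26 under 7, cluster 107 under 6, clusters 19 and 5 under 4, and cluster 128 under 3. Under total count scaling 3 of the 9 passed, clusters 92, 27 and 5. The fits that left out 1 library gave cluster 92 log2 fold changes from 0.97 to 1.18 and cluster 27 from −0.84 to −0.80, although without either GFP_KD library neither of them was called.

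By chromosome the medians of the log2 fold change stayed within 0.25 of 0 wherever at least 2 clusters were tested, as compared with −0.02 over all clusters. On the X the median of 8 clusters was −0.00 and on 2L the median of 10 was −0.17. On 2R it was 0.22 over 9 clusters and on 2RHet 0.09 over 8. On 3L it was 0.07 over 11 clusters with 9 above 0. On 3LHet it was −0.12 over 15 and on 3RHet −0.12 over 15, with 12 of the 15 on 3RHet below 0. The 3RHet clusters were shallow, with a median of 30.8 reads. Over the 44 clusters on assembled arms the median was 0.06, and over the 40 on heterochromatic scaffolds it was −0.08.

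**Figure D3:**
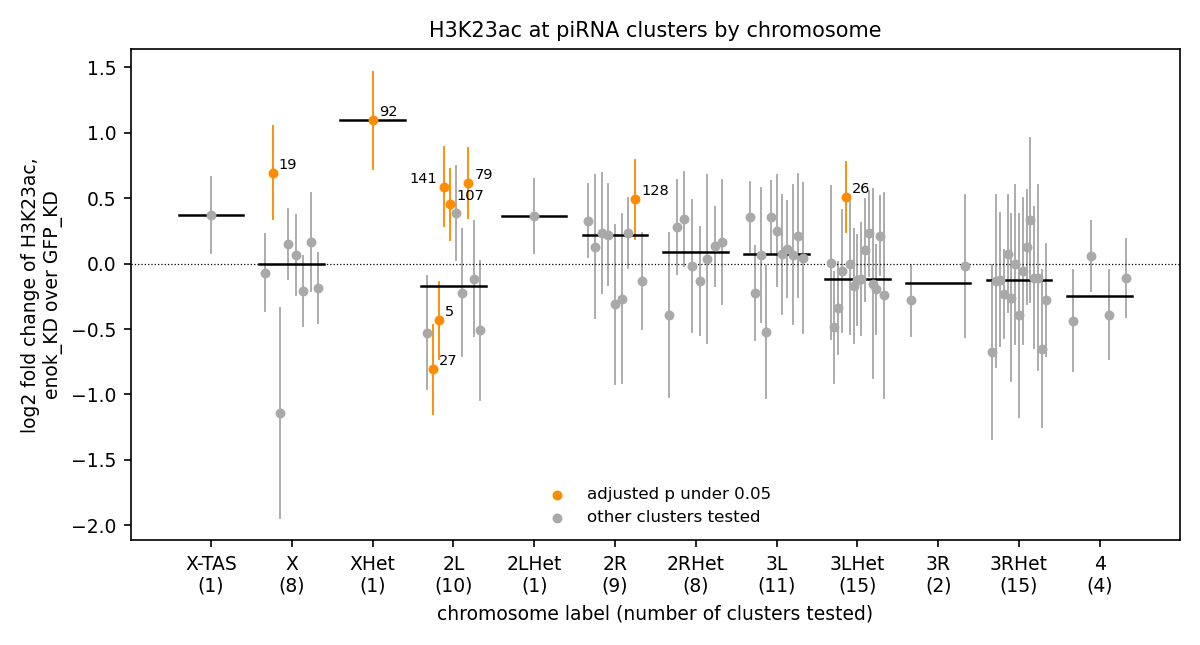
Log2 fold change of H3K23ac, enok_KD over GFP_KD, for each of the 85 tested clusters, grouped by chromosome label and ordered by position within it. Vertical lines are 95% intervals, black bars are medians, and orange marks the 9 calls, of which 5 lie on 2L.

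The 4 clusters of chromosome 4, a small chromosome rich in repeats, had a median of −0.25 and no call. Cluster 106 (612204 to 623399) had 75.9 and 93.8 normalised reads in enok_KD, against 120 and 112 in GFP_KD (log2 fold change −0.44 ± 0.20, SE; edgeR adjusted p = 0.127). Cluster 78 (1020285 to 1025978) had 128 and 131 in enok_KD, against 171 and 168 in GFP_KD (−0.39 ± 0.17; edgeR adjusted p = 0.122). At both, the enok_KD libraries lay below the GFP_KD libraries, as in 28.2% of all 85 clusters. Their H3 log2 fold changes were 0.36 ± 0.11 and 0.13 ± 0.12, the other direction from H3K23ac. The part of H3 in these values was not tested. The deeper clusters of the chromosome overlapped between the groups, with cluster 29 at 0.06 ± 0.14 and cluster 3, which was added after its value was seen, at −0.11 ± 0.15. The 4 clusters together held 11.7% and 10.4% of the cluster reads in enok_KD and 15.3% and 16.0% in GFP_KD, a share that cluster 92 also lowers.

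Cluster 1, or 42AB (2R, 2144349 to 2386719), the major dual-strand source of germline piRNAs, had 487 and 465 normalised reads in enok_KD, against 435 and 372 in GFP_KD. Both enok_KD libraries were above both GFP_KD libraries, by a log2 fold change of 0.23 ± 0.14 (SE; 95% interval −0.04 to 0.50; edgeR adjusted p = 0.271). Under total count scaling its value was −0.18. Cluster 2 (X, 21392175 to 21431907) had 567 and 526 in enok_KD, against 495 and 488 in GFP_KD (0.15 ± 0.14; edgeR adjusted p = 0.557; −0.26 under total count scaling). The interval of cluster 2, −0.12 to 0.42, did not reach a change of 1 on the log2 scale in either direction, nor did that of 42AB.

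Among other X-linked clusters, those named here after their values were seen included flamenco. Cluster 8, which is flamenco (21505666 to 21684449), had 177 and 245 normalised reads in enok_KD, against 211 and 197 in GFP_KD (log2 fold change 0.06 ± 0.16, SE). The enok_KD libraries lay on either side of the GFP_KD libraries. Cluster 9 (21759393 to 21844063) had 558 and 531 H3K23ac reads in enok_KD, against 647 and 611 in GFP_KD (−0.21 ± 0.14; edgeR adjusted p = 0.358). At that cluster H3 was far higher in enok_KD, with 10414 and 13173 normalised reads, against 6262 and 5629 in GFP_KD (H3 log2 fold change 0.99 ± 0.10). Cluster 110 had the lowest fold change of all, −1.14 ± 0.41, but it rested on 1 and 11 raw reads in enok_KD and 18 and 21 in GFP_KD (edgeR adjusted p = 0.0783), and it was at −3.37 without enok_KD replicate 2.

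The 5 highest clusters that were not called, among those with at least 100 reads, were clusters 62, 4, 35, 48 and 40, at log2 fold changes of 0.39, 0.37, 0.37, 0.35 and 0.35. Their adjusted p-values by edgeR ran from 0.0783 to 0.142. In each the enok_KD libraries lay above the GFP_KD libraries, as in 23.5% of all 85, but these clusters were chosen by their values. Under total count scaling their values were between −0.03 and −0.06. Cluster 4 is the X-TAS array, a telomere-associated repeat, and had 2710 and 2269 normalised reads in enok_KD, against 1945 and 1898 in GFP_KD. Its log2 fold change was 0.22 without enok_KD replicate 1. The 5 lowest were clusters 106, 78, 15, 42 and 53, the last 3 at −0.34, −0.28 and −0.23. In all but cluster 53 the enok_KD libraries lay below the GFP_KD libraries, as in 28.2% of all 85, but these too were chosen by their values. Cluster 53 was at −0.46 without enok_KD replicate 1 and at −0.03 without enok_KD replicate 2. In H3, cluster 53 was at 0.54 ± 0.09, the other direction from H3K23ac, and cluster 15 at −0.27 ± 0.10, the same direction.

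Of the 6 clusters that the study lists as having lower RNA in enok mutants, 1 fell in H3K23ac (cluster 5) and none rose by edgeR's adjusted p, as compared with 2 lower and 7 higher of all 85. Their median log2 fold change was −0.03, with 3 above 0 and 3 below and a range from −0.43 to 0.23. The 7 clusters that the study labelled for severely lower piRNAs in enok mutants again included cluster 5 as the only call. Their median was −0.28, with 2 above 0 and 5 below, and in 4 of them both enok_KD libraries lay below both GFP_KD libraries, as compared with 28.2% of all 85. The lists share clusters 1, 5, 29 and 78. Cluster 33 (2L, 2499 to 11131) had 58.0 and 67.5 normalised reads in enok_KD, against 95.6 and 86.8 in GFP_KD (−0.53 ± 0.22; edgeR adjusted p = 0.0927), the lowest of these 7. Cluster 42 was at −0.28 ± 0.14. In H3, cluster 33 was at 0.36 ± 0.14, the other direction from H3K23ac, and cluster 42 at 0.06 ± 0.09. None of the intervals in either list reached −1.

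At transposon elements, no difference in H3K23ac between enok_KD and GFP_KD passed the test against the spread between replicates. By edgeR's quasi-likelihood test, 0 of 202 elements (0%) had an adjusted p under 0.05, and the lowest was 0.447. Unlike the test of clusters, this test gave an element's own replicate spread some weight. At an unadjusted p under 0.05 there were 20 elements (9.9%), 12 higher (5.94%) and 8 lower (3.96%). The log2 fold change had a median of 0.04 and ran from −0.89 to 1.00, with 110 elements above 0 and 92 below. The 95% interval stayed above −1 in 194 of the 202. The DESeq2 test called 2 elements, R2_DM higher and DIVER_I lower, with 13 at an unadjusted p under 0.05. The voom test of limma called 0, with 20 at an unadjusted p under 0.05.

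Here too the calls turned on which knockdown supplied the spread. Without enok_KD replicate 1, 70 elements were called, 40 higher and 30 lower, and without enok_KD replicate 2, 81 were called, 40 higher and 41 lower. Without GFP_KD replicate 1 or without GFP_KD replicate 2, 0 were called by edgeR, with 2 and 3 elements at an unadjusted p under 0.05. The groups did not overlap in 82 of the 202 elements (40.6%), with both enok_KD libraries above in 45 (22.3%) and below in 37 (18.3%).

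The enok_KD libraries often lay on opposite sides of the GFP_KD pair. In 75 of 202 elements (37.1%), 1 enok_KD library was above both GFP_KD libraries and the other below both, with replicate 1 the higher in 37 and replicate 2 in 38. The reverse, with the GFP_KD libraries around the enok_KD pair, occurred in 6. The difference between enok_KD replicates varied by superfamily. The median log2 ratio of enok_KD replicate 1 to replicate 2 was 0.69 for the 5 R1 elements, 0.43 for the 4 telomeric elements and −0.56 for the 7 Transib elements, while in GFP_KD these medians were 0.08, 0.05 and −0.05.

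The replicate difference was also measured in the H3 libraries of the same numbers. Over the 202 elements, the log2 ratio of replicate 1 to replicate 2 in H3K23ac had a Pearson correlation of 0.70 with that in H3 in enok_KD, and of 0.00 in GFP_KD. Over the 85 clusters the correlation was 0.25 in enok_KD and −0.14 in GFP_KD. The points are elements or clusters of the same libraries and not independent replicates. In H3 the enok_KD medians were 0.37 for R1, 0.14 for telomeric and −0.43 for Transib elements, each closer to 0 than in H3K23ac. What set the enok_KD replicates apart was not tested.

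**Figure D4:**
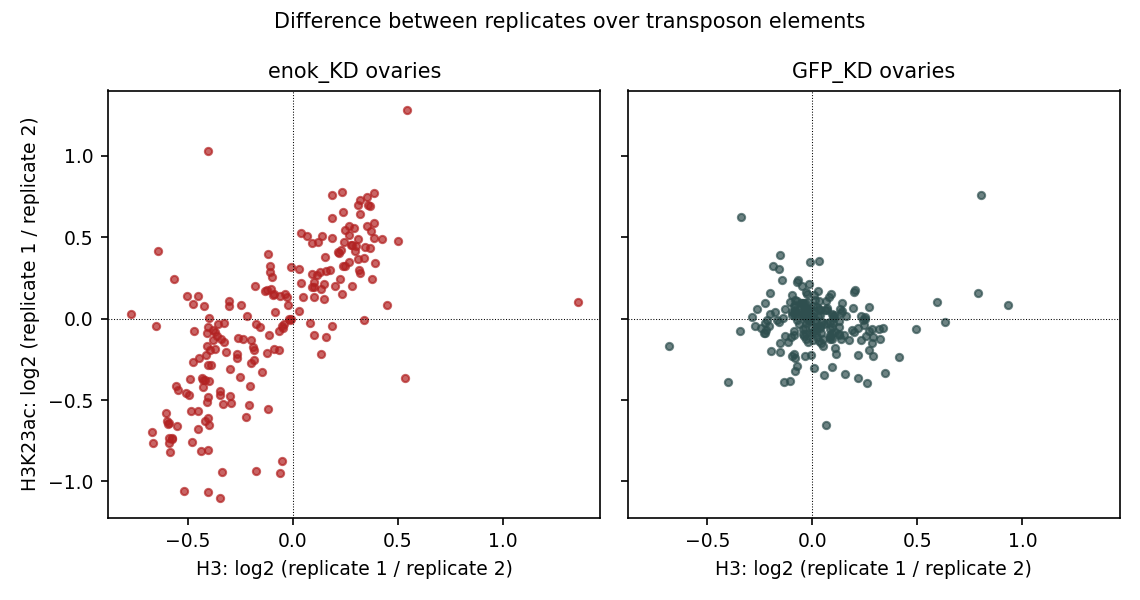
Log2 ratio of replicate 1 to replicate 2 in H3K23ac (vertical) against that in H3 (horizontal) for the 202 tested transposon elements, with enok_KD in the left panel and GFP_KD in the right. The enok_KD points spread along the diagonal (r = 0.70) and the GFP_KD points gather around 0 (r = 0.00).

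The element with the lowest unadjusted p was R2_DM, the R2 retrotransposon, which inserts into the genes for 28S ribosomal RNA. It had 1681 and 1244 normalised reads in enok_KD, against 766 and 693 in GFP_KD. Both enok_KD libraries were well above both GFP_KD libraries, by a log2 fold change of 1.00 ± 0.21 (SE; 95% interval 0.50 to 1.50; edgeR adjusted p = 0.447). In H3 the log2 fold change of R2_DM was −0.11 ± 0.15. The 5S_DM repeat, the genes of 5S ribosomal RNA, had 4508 and 3367 in enok_KD, against 2585 and 2745 in GFP_KD (0.56 ± 0.19; edgeR adjusted p = 0.447).

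R1_DM, which also inserts into ribosomal DNA, had 5431 and 3349 normalised reads in enok_KD, against 3529 and 3405 in GFP_KD, so that 1 enok_KD library lay below the GFP_KD pair. Its log2 fold change was 0.34 ± 0.24, and −0.04 without enok_KD replicate 1. All 4 ribosomal elements considered, R2_DM, 5S_DM, R1_DM and R1-2_DM, had values above 0, with a median of 0.45 beside 0.04 over all elements. The list was made with earlier results of these data known. The groups overlapped at R1_DM and R1-2_DM. At R1-2_DM the log2 ratio of enok_KD replicate 1 to replicate 2 was 1.28. R2_DM and 5S_DM were 2 of the 12 elements higher at an unadjusted p under 0.05, which are 5.94% of all 202.

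The lowest element was RSP, the Responder satellite of chromosome 2 heterochromatin. It had 119 and 202 normalised reads in enok_KD, against 294 and 307 in GFP_KD. Both enok_KD libraries were lower, by a log2 fold change of −0.89 ± 0.26 (SE; 95% interval −1.51 to −0.26; edgeR adjusted p = 0.447), and enok_KD replicate 1 was the lower of them. The value was −0.56 without enok_KD replicate 1 and −1.34 without enok_KD replicate 2. RSP was called with the replicate number as a block (−0.93; edgeR adjusted p = 0.00955) and by limma's voom with group quality weights (−0.93; adjusted p = 0.0216). In H3 RSP was at 0.50 ± 0.20, the other direction. The median of the 5 satellites was −0.25, with 4 below 0, and the most abundant, SAR_DM, had 7815 and 11922 in enok_KD, against 11245 and 12167 in GFP_KD, which overlap.

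Among LTR retrotransposons, 65 of 116 elements were above 0 and 51 below, with a median log2 fold change of 0.04. The Gypsy superfamily had a median of 0.05 over 92 elements with a range from −0.54 to 0.66. Of these 92, 7 were higher and 3 lower at an unadjusted p under 0.05. Over all 202 elements these were 12 (5.94%) and 8 (3.96%). Copia was at −0.04 over 7 and Pao at −0.05 over 16. ROO_I, the internal part of roo and the most abundant element of the table, had 48318 and 48647 normalised reads in enok_KD, against 41241 and 42998 in GFP_KD. The enok_KD libraries were higher by 0.20 ± 0.10 (edgeR adjusted p = 0.548), with H3 at 0.49 ± 0.16.

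Elements of the 412 and Tirant families, LTR retrotransposons, were among those with an unadjusted p under 0.05. DM412, the internal part of 412, had 6042 and 7014 normalised reads in enok_KD, against 4556 and 4852 in GFP_KD (log2 fold change 0.47 ± 0.15, SE; edgeR adjusted p = 0.447). T412LTR, which the table labels as an LTR without a superfamily of its own, had 391 and 392 in enok_KD, against 234 and 306 in GFP_KD (0.54 ± 0.19; edgeR adjusted p = 0.447). TIRANT_I, the internal part of Tirant, had 626 and 525 in enok_KD, against 410 and 418 in GFP_KD (0.47 ± 0.17; edgeR adjusted p = 0.447). Its LTR was at 0.50 ± 0.19. None of these elements, chosen by p-value or after their values were seen, overlapped between the groups. Over all 202 elements, 22.3% had enok_KD above without overlap. In H3, DM412 was at 0.28 ± 0.15 and T412LTR at −0.56 ± 0.20. TIRANT_LTR was picked out after its value was seen. The LTR of Invader6, at 0.66 ± 0.19, had under 50 normalised reads in each library.

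On the lower side, DIVER_I, a Pao element, had 1310 and 958 normalised reads in enok_KD, against 2023 and 1873 in GFP_KD (log2 fold change −0.78 ± 0.20, SE; edgeR adjusted p = 0.447). Its H3 value was −0.39 ± 0.15. ACCORD_I had 285 and 313 in enok_KD, against 435 and 403 in GFP_KD (−0.48 ± 0.16; edgeR adjusted p = 0.447). BLASTOPIA_I had 1894 and 1837 in enok_KD, against 2450 and 2471 in GFP_KD (−0.40 ± 0.15; edgeR adjusted p = 0.447). In these the enok_KD libraries were below the GFP_KD libraries without overlap. The same held in Gypsy9_I (−0.54 ± 0.19), BEL_LTR (−0.41 ± 0.16) and the Jockey element BS4_DM (−0.56 ± 0.22), each with an edgeR adjusted p of 0.447. These elements were chosen by p-value, and 18.3% of all 202 had enok_KD below without overlap. Gypsy9_I and BS4_DM had under 100 normalised reads in each library. In H3, BS4_DM was at −0.94 ± 0.36 and Gypsy9_I at −0.43 ± 0.20, in the direction of H3K23ac, while BLASTOPIA_I was at −0.22 ± 0.15, BEL_LTR at −0.16 ± 0.19 and ACCORD_I at 0.06 ± 0.18.

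The table counts the internal part and the long terminal repeats of many families separately, and these are different sequences of the same family. In 30 of 51 families with both parts tested, the parts lay on the same side of 0, 17 above and 13 below, and in 21 they lay on opposite sides. The median absolute difference between the parts was 0.18 on the log2 scale. Among the families named above, roo, Gypsy9 and Invader6 had parts on opposite sides of 0. ROO_LTR was at −0.11 beside ROO_I at 0.20, and Gypsy9_LTR at 0.32 beside Gypsy9_I at −0.54. Invader6_I was at −0.01 beside its LTR at 0.66. The parts of Tirant, Accord, Blastopia, BEL and Diver lay on the same side. These partners were picked out after their values were seen. Over all families the median was 0.01 for 55 internal parts and 0.05 for 56 long terminal repeats.

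**Figure D5:**
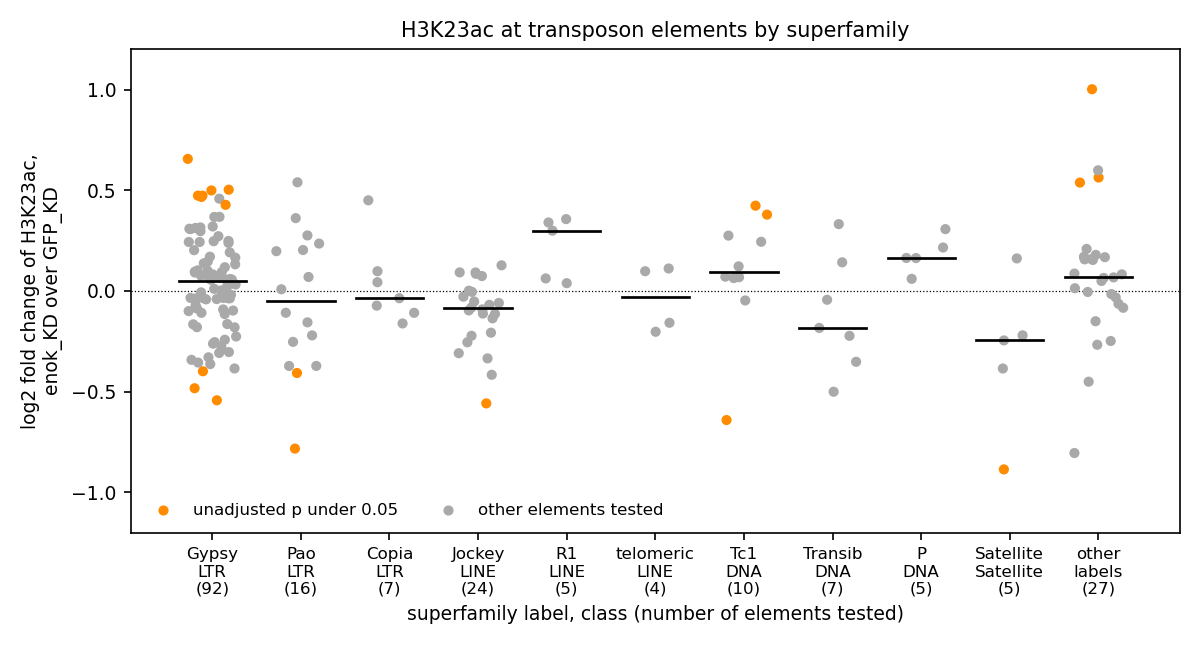
Log2 fold change of H3K23ac, enok_KD over GFP_KD, for the 202 tested transposon elements by superfamily label and class, with labels of fewer than 3 tested elements grouped at the right. Black bars are medians, orange points have an unadjusted p under 0.05, and no element passed the adjusted p. R2_DM at 1.00 and RSP at −0.89 are the extremes.

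Among the 41 elements labelled LINE, the median log2 fold change was −0.03. LINE elements as a class move through an RNA copy and lack terminal repeats, but the label was not checked for each entry. Jockey elements had a median of −0.09, with 18 of 24 below 0, while all 5 R1 elements were above 0 with a median of 0.30. The groups overlapped in all 5 R1 elements. In 4 of them enok_KD replicate 1 lay above and enok_KD replicate 2 below both GFP_KD libraries. DNA transposons had a median of 0.12, with 21 of 29 above 0. All 5 elements with the superfamily label P were above 0, with a median of 0.16. That label takes in related Protop entries and not only the P element, so its members are not independent families. Transib elements were mostly below, with 5 of 7 under 0 and a median of −0.18, and the lowest, Transib5, was at −0.50 ± 0.21. In 4 of the 7, enok_KD replicate 2 lay above and enok_KD replicate 1 below both GFP_KD libraries. Over all 202 elements the enok_KD libraries lay on opposite sides in 37.1%. None of these groups held a call. In H3 the median log2 fold changes were −0.11 for LINE, −0.30 for Jockey and 0.20 for R1 elements. They were 0.22 for DNA transposons, 0.24 for elements labelled P and 0.40 for Transib elements, the last in the other direction from H3K23ac. The part of H3 in these medians was not tested.

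In the Tc1 superfamily of DNA transposons the values diverged within a family. BARI_DM had 583 and 612 normalised reads in enok_KD, against 943 and 922 in GFP_KD (log2 fold change −0.64 ± 0.16, SE; edgeR adjusted p = 0.447), and BARI1 had 149 and 221 in enok_KD, against 178 and 208 in GFP_KD (−0.05 ± 0.23). The groups stood apart at BARI_DM and overlapped at BARI1. FB4_DM, a foldback element, had 11566 and 12316 in enok_KD, against 9028 and 9340 in GFP_KD (0.38 ± 0.13; edgeR adjusted p = 0.447). S_DM had 2606 and 2925 in enok_KD, against 2074 and 2052 in GFP_KD (0.42 ± 0.16; edgeR adjusted p = 0.447). H3 was at −0.44 ± 0.17 at BARI_DM, 0.40 ± 0.15 at FB4_DM and 0.25 ± 0.16 at S_DM, in the direction of H3K23ac at each, and at 0.36 ± 0.21 at BARI1. The part of H3 in these values was not tested.

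The transposon families that the study lists as having higher RNA in enok mutants gave 11 tested elements, with a median log2 fold change of −0.05, 5 above 0 and 6 below, and no call. These include BARI_DM, which the table keeps apart from BARI1, the element the study names. Without BARI_DM the 10 others had a median of 0.05, 5 above 0 and 5 below, and ran from −0.25 to 0.36. The highest was BATUMI_I, from the family labelled GATE. BATUMI_I had 1604 and 1323 normalised reads in enok_KD, against 1136 and 1140 in GFP_KD (0.36 ± 0.17; edgeR adjusted p = 0.548). BURDOCK_I was at −0.25 ± 0.16, HMSBEAGLE_I at −0.24 ± 0.15 and BLOOD_I at 0.24 ± 0.17. The parts of Burdock lay on opposite sides of 0, with BURDOCK_LTR at 0.24. At BURDOCK_LTR the log2 ratio of enok_KD replicate 1 to replicate 2 was −0.95. BLOOD_LTR at 0.15 and BATUMI_LTR at 0.20 lay on the side of their internal parts. The intervals of these 10 stayed within 1 of 0 on the log2 scale.

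Of the telomeric retrotransposons, which maintain the ends of fly chromosomes, HETA had 12640 and 9711 normalised reads in enok_KD, against 12934 and 12789 in GFP_KD (log2 fold change −0.20 ± 0.16, SE; edgeR adjusted p = 0.771), with both enok_KD libraries below the GFP_KD pair. TAHRE was at −0.16 ± 0.18 and TART at 0.10 ± 0.20. The 4 telomeric elements had a median of −0.03. The 6 elements of gypsy, ZAM and Idefix, which are silenced by piRNAs from flamenco, had a median of 0.08 and ran from −0.04 to 0.32. The highest was the gypsy internal part, Gypsy_I, with 1388 and 1090 in enok_KD, against 998 and 986 in GFP_KD (0.32 ± 0.19; edgeR adjusted p = 0.614).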

How the data were processed

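ChIP-seq libraries of H3K23ac from enok_KD and GFP_KD ovaries were compared, with groups taken from the sample titles. The authors mapped reads to dm3 with Bowtie2 2.2.1 and, by their methods, allowed no mismatch and kept unique mappers, so that identical repeat copies are under-represented. Trimmomatic and bedtools are named in the submitters' processing notes. The deposited values were raw read counts for each piRNA cluster and each transposon element, neither normalized nor pooled. The treatment of duplicates, the counting program and the repeat annotation are not given in the sources used here. Further deposited columns of the cluster tables hold the authors' own DESeq2 comparison (mean, log2 fold change, error, Wald statistic and p-values) and were not used. No per-library column was left unmapped (0 columns).

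Counts were tested with edgeR 4.0.16 (R 4.3.3) by the quasi-likelihood test, per table, with TMM factors, no covariate, a mean of at least 10 counts, and Benjamini-Hochberg adjustment with calls at 0.05. Standard errors were taken from the fold change and its F statistic, and intervals are 95%. The H3 libraries were fitted likewise, as context. Ratios between replicates used an offset of 0.5 normalised reads. The code was tested on simulated counts with known changes. Alternatives were total count scaling with and without cluster 92, DESeq2 size factors, factors from the other table, no filter, a mean of at least 100, the DESeq2 1.42.0 test, limma 3.58.1 voom, voom with group quality weights (chosen after seeing the data), 1 fit of the 8 H3 and H3K23ac libraries, a replicate block and leaving out each library.

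Clusters named were those called, the 5 highest and 5 lowest others with at least 100 counts, members of the lists and clusters 1, 2 and 92. Elements named were the 8 lowest p-values under 0.05 in each direction, members of the lists, and the deepest, highest and lowest element of a superfamily with at least 3 tested, not all of which are given. Further features are marked as added after their values were seen. TIRANT_LTR was added in the same way. Lists came from the study's text or textbook knowledge. The members and the lists were chosen with earlier results of these data known. Cluster positions are those of the tables. No genome of this build was used, so no sequence is shown.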

Additional observations from a re-analysis of the deposited data

How the results depend on the processing

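Cluster calls, 9 in the fit reported, numbered 28 with total count scaling, 5 with DESeq2 size factors, 3 with factors from the other table, 4 with totals without cluster 92, and 0 to 21 when 1 library was left out. Element calls, 0 as reported, numbered 2 with the DESeq2 test, 3 with voom and group quality weights (R2_DM, DIVER_I and RSP), and 0 to 81 when 1 library was left out. With the replicate number as a block, 6 clusters and 2 elements (R2_DM and RSP) were called. The deviations of same-numbered libraries correlated by 0.41 over clusters and 0.27 over elements, and with 2 pairs the numbers were not treated as pairing. Total count scaling turned the log2 fold changes of clusters 62, 4, 35, 48, 40, 1, 2, 29 and 8 to −0.0252, −0.0395, −0.0474, −0.0582, −0.0613, −0.18, −0.26, −0.36 and −0.35. Clusters 29 and 8 were at −0.0182 and −0.0114 with a mean of at least 100 counts, and at −0.0209 and −0.0105 with totals without cluster 92. BARI1 was at 0.00473 with factors from the other table and at 0.0461 with 8 libraries in 1 fit. Leaving out 1 library gave cluster 29 a range of −0.0328 to 0.13, cluster 8 of −0.22 to 0.24, cluster 3 of −0.26 to 0.000123, BARI1 of −0.37 to 0.22, TART of −0.15 to 0.31, R1_DM of −0.0399 to 0.65 and SAR_DM of −0.58 to 0.0376. Over the named features and all alternatives, 24 values changed sign, 54 lost a call, 81 gained one and 669 did neither. Leaving out a library changes by construction which pair supplies the spread, and for the other settings the cause was not tested.

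Depth limits the shallow clusters: among the 46 with under 100 reads the median standard error was 0.27 on the log2 scale. The scale is relative within each table, and with 2 libraries a group the knockdown and the library cannot be told apart beyond the spread shown.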
